A study of Homo sapiens with 6 samples.

Results

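The urea cycle and arginine genes are 9 genes chosen by function, out of 57500 genes counted in each library. They are the 5 enzymes of the cycle (CPS1, OTC, ASS1, ASL, ARG1), the enzyme that makes the activator of CPS1 (NAGS), the mitochondrial ornithine carrier SLC25A15, the second arginase ARG2, and ornithine aminotransferase (OAT). The rows were found by Ensembl identifier, 1 row per gene. RNA had been sequenced from HepG2, an established human hepatocarcinoma cell line, labelled wild type in all samples. There were 3 libraries from vehicle cultures and 3 from cultures given glycine (10 mM) for 24 h. Both groups were grown in a medium that already contains glycine, so vehicle is not a state without glycine, and a line derived from a tumour stands for liver only in part. The paper studied glycine as a source of cyanide in cells, and this RNA experiment compared transcripts with and without added glycine.

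The urea cycle turns toxic ammonia into urea, and in the body the whole cycle runs mainly in periportal hepatocytes. Carbamoyl phosphate and citrulline are made in the mitochondrion, citrulline then leaves for the cytosol, and arginase releases urea and returns ornithine, which the carrier takes back inside. Many other cells keep only parts of the route: ASS1 and ASL for making arginine, ARG2 for breaking it down in mitochondria, and OAT for joining ornithine to glutamate and proline.

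Of the 9 genes, 3 were called lower with glycine and none higher (edgeR quasi-likelihood test, adjusted p under 0.05). ARG2 fell by 23.7% and was called in all 14 alternative settings. OAT fell by 14.2%, but was called in only 7 of 14 alternative settings. OTC fell by 53.3%, but was close to the detection limit, met the filter on low counts mainly through the vehicle libraries, and was called in only 4 of 13 alternative settings. CPS1, SLC25A15, NAGS, ASL, ASS1 and ARG1 did not pass the test. All 9 genes passed the filter on low counts. Over all 15492 tested genes, 13.3% were called, of which 6.71 percentage points were higher and 6.54 lower. The median log2 change of the 9 genes was -0.21, with a range from -1.14 to 0.16 and 6 of 9 values below zero, beside a median of 0.00349 over all tested genes. In 4 of the 9 genes the glycine libraries did not overlap the vehicle libraries, above them for CPS1 and below them for OTC, ARG2 and OAT. Such a gap was found in 31.6% of all tested genes.

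**Figure D1:**
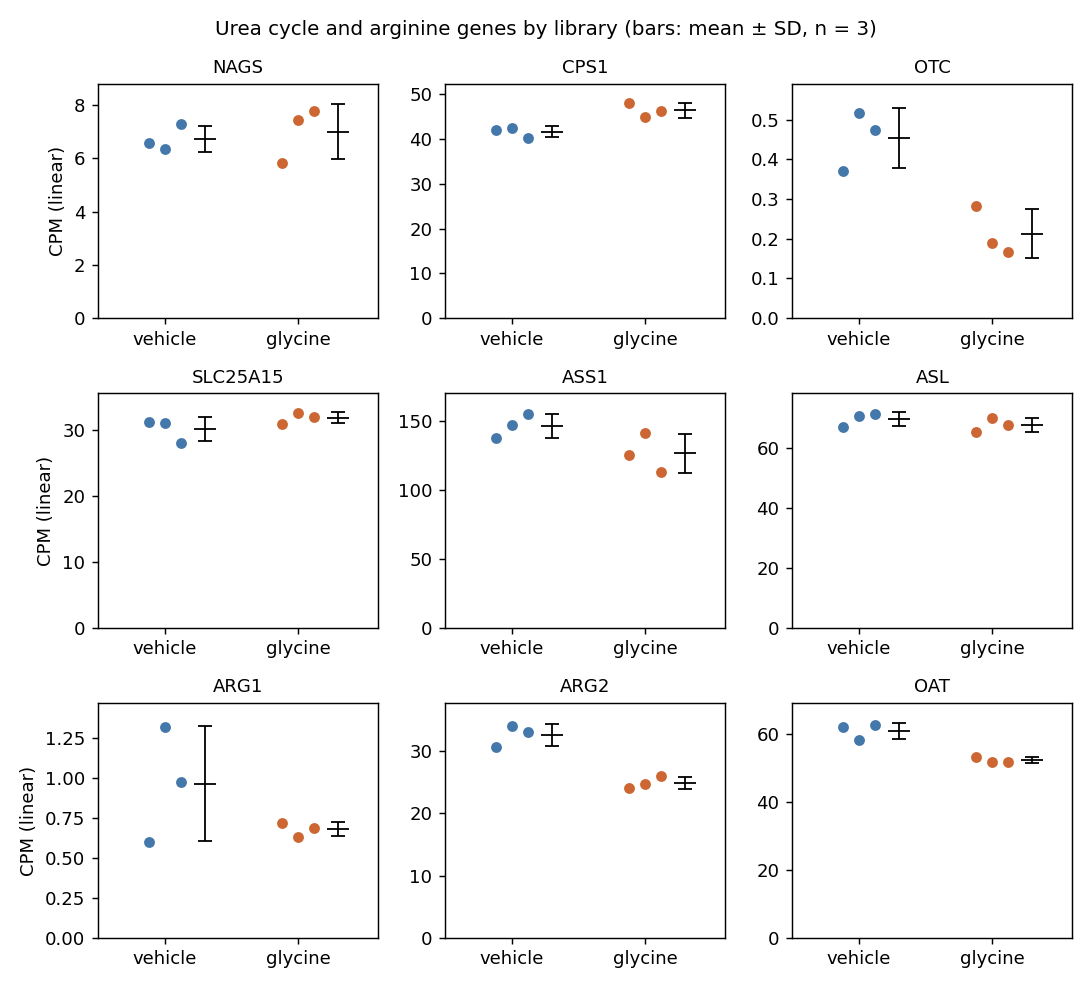
Level of each gene as scaled counts (CPM, linear axes from 0) in the 3 vehicle (blue) and 3 glycine (orange) libraries, 1 point per library, with bars for mean ± SD. The glycine points lie below the vehicle points for OTC, ARG2 and OAT, above them for CPS1, and the groups overlap for the other 5 genes, although 2 of the 3 glycine points lie below the vehicle range for ASS1 and above it for SLC25A15.

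The libraries held from 31795489 to 58815986 counts, and the deepest was glycine replicate 2. A single count was worth 0.017 to 0.0315 CPM (counts per library, scaled to a shared size), and 3 counts 0.051 to 0.0944 CPM, which are limits of counting error only. Hepatocyte identity was checked on 8 markers, all tested, whose summed level ran from 29082 to 33125 CPM with vehicle and from 24935 to 28667 CPM with glycine. Among these, APOA1 (log2 change -0.26, adjusted p = 0.0483 by edgeR) and TTR (-0.32, adjusted p = 0.00921 by edgeR) fell and 6 were not called. The median log2 change of the 8 markers was -0.27, and 7 of the values were negative. Of 11 markers of other cell types, 6 were tested and 5 were too low for it, among them the T cell gene CD3E at 0 counts in every library. Their summed level was 9.83 to 11.1 CPM with vehicle and 11.9 to 12.9 CPM with glycine. COL1A1 (log2 change 1.03, adjusted p = 0.000585 by edgeR) and CD68 (0.63, adjusted p = 0.0226 by edgeR) rose, although another gene covers 85.8% of the exon length of CD68. VWF (-1.18, adjusted p = 0.0239 by edgeR) was called lower, on only 22, 15 and 25 counts with vehicle and 8, 14 and 12 with glycine. At 0.251, 0.239 and 0.284 CPM with glycine, VWF met the filter on low counts mainly through the vehicle libraries. The part of these markers in the changes reported here was not tested. In bulk RNA, fewer cells expressing a gene and less of its RNA per cell cannot be told apart.

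Levels of different genes were compared per length, as CPM divided by exon length in kilobases (RPKM). This length is the union of all annotated exons, not the length of the transcript expressed. Orders, percentiles and ratios between genes depend on it. With vehicle, ASS1 was the highest of the 9 at 48.0 ± 2.87 RPKM (SD, n = 3), followed by ASL at 21.8 ± 0.742, OAT at 18.0 ± 0.718, SLC25A15 at 16.4 ± 0.979 and ARG2 at 13.5 ± 0.729 RPKM. These 5 genes stood between the 77.5th and the 93.6th percentile of all tested genes. CPS1, in normal liver a very abundant mitochondrial enzyme, reached only 3.98 ± 0.117 RPKM, at the 52.2nd percentile. NAGS followed at 2.39 ± 0.172 RPKM. The lowest levels were those of ARG1 at 0.491 ± 0.183 RPKM and OTC at 0.286 ± 0.0470 RPKM, at the 17.9th and 11.8th percentiles. The span from OTC to ASS1 was thus 168-fold with vehicle. With glycine, where OTC rested on only 27 counts in the whole group, it was 311-fold.

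Neighbours in this order were separate in all vehicle libraries, apart from ARG1 and OTC, whose ranges overlapped. With glycine, OAT (15.5 ± 0.256 RPKM) and SLC25A15 (17.3 ± 0.452 RPKM) changed places, and their ranges did not overlap in either group. In CPM, which leaves out length, OAT stayed above SLC25A15 with glycine (52.3 against 31.8 CPM). ARG2 was 3.39 times CPS1 in length-scaled level with vehicle, and NAGS was 4.87 times ARG1. The order of ARG2 and CPS1 rests on their annotated lengths of 2418 and 10444 bases, since in CPM CPS1 was the higher (41.6 against 32.7 with vehicle). The genes of the arginine-making pair in the cytosol and of ornithine handling were well expressed, while the genes for the ornithine-to-citrulline step and the liver arginase were near zero.

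**Figure D2:**
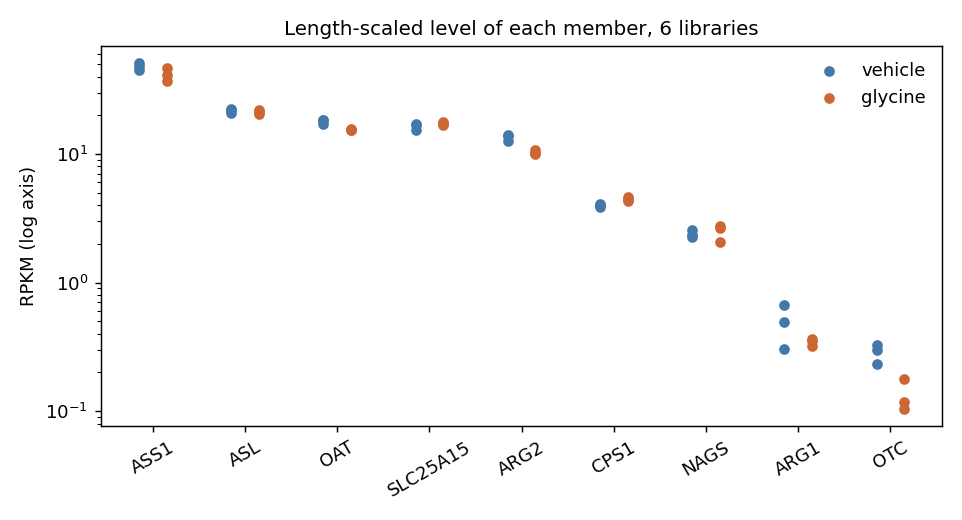
Length-scaled level (RPKM, log axis) of the 9 genes in the order of their vehicle means, with 1 point per library (vehicle blue, glycine orange). ASS1 leads at 48.0 RPKM with vehicle, and ARG1 (0.491) and OTC (0.286) lie far below the other 7.

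The entry into the cycle showed no called change. NAGS makes N-acetylglutamate, without which CPS1 is inactive. NAGS (ENSG00000161653, chromosome 17, 44004546 to 44009063 in GRCh38) was at 6.57, 6.36 and 7.29 CPM with vehicle and at 5.83, 7.43 and 7.77 CPM with glycine. The glycine values enclosed the vehicle values. The log2 change was 0.07 (95% interval -0.19 to 0.32, adjusted p = 0.769 by edgeR).

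CPS1 joins ammonia and bicarbonate to carbamoyl phosphate, the first committed step. CPS1 (ENSG00000021826, chromosome 2, 210477682 to 210679107) had 42.1, 42.5 and 40.2 CPM with vehicle and 48.1, 44.8 and 46.3 CPM with glycine. All glycine libraries were above all vehicle libraries, with means of 46.4 ± 1.64 and 41.6 ± 1.22 CPM (SD, n = 3). The log2 change of 0.16 ± 0.0634 (s.e.) nevertheless missed the threshold over all genes (adjusted p = 0.126 by edgeR), and its 95% interval ran from 0.02 to 0.29.

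OTC joins carbamoyl phosphate to ornithine to give citrulline. OTC (ENSG00000036473, chromosome X, 38352545 to 38421450) was counted 13, 18 and 17 times in the vehicle libraries and 9, 11 and 7 times in the glycine libraries. On the CPM scale this was 0.371, 0.516 and 0.473 with vehicle and 0.282, 0.188 and 0.166 with glycine, so every glycine library was lower although 2 of the 3 were sequenced more deeply than any vehicle library. Pooled over a group, 48 counts with vehicle gave 0.453 CPM (exact Poisson 95% interval 0.334 to 0.601) and 27 counts with glycine gave 0.204 CPM (0.134 to 0.296), intervals that cover counting error only and not the spread between libraries. The log2 change was -1.14 ± 0.341 (s.e., adjusted p = 0.0435 by edgeR), with a 95% interval from -1.87 to -0.40. The call was thin. At the filter's limit of 0.28 CPM, OTC passed in 3 vehicle libraries and in 1 glycine library, so it entered the test mainly through the group where it was higher. The adjusted p exceeded 0.05 whichever library was left out (0.0534 to 0.159) and was 0.0591 without the filter on low counts and 0.152 with DESeq2.

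SLC25A15 carries ornithine into the mitochondrion in exchange for citrulline. SLC25A15 (ENSG00000102743, chromosome 13, 40789412 to 40810111) was at 31.2, 31.0 and 28.0 CPM with vehicle and at 30.9, 32.5 and 31.9 CPM with glycine. The groups overlapped, and the log2 change was 0.08 (95% interval -0.07 to 0.23, adjusted p = 0.493 by edgeR). Its 5 annotated pseudogenes together took 1 count over all 6 libraries.

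In the cytosol, ASS1 joins citrulline to aspartate and ASL splits the product into arginine and fumarate. ASS1 (ENSG00000130707, chromosome 9, 130444929 to 130501274) had 137, 147 and 155 CPM with vehicle and 126, 141 and 113 CPM with glycine. The second glycine library lay within the vehicle range and the other two below it. The log2 change was -0.21 ± 0.0813 (s.e., adjusted p = 0.113 by edgeR), and its 95% interval ran from -0.38 to -0.03. Without glycine replicate 2, the deepest library, ASS1 passed the test with a log2 change of -0.30 (adjusted p = 0.0364 by edgeR). ASS1 has 14 annotated pseudogenes, 10 of them with a count, which took 143 counts beside the 32568 of ASS1 (0.439%).

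ASL (ENSG00000126522, chromosome 7, 66075798 to 66093558) had the smallest log2 change of the 9 in size. It was at 66.8, 70.5 and 71.3 CPM with vehicle and at 65.2, 70.0 and 67.6 CPM with glycine, with overlapping groups. Its log2 change was -0.04, with a 95% interval from -0.17 to 0.09 (adjusted p = 0.732 by edgeR). Another gene model covers 17.6% of its exon length, but had at most 2 counts in any library.

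Of the arginases, which split arginine into urea and ornithine, ARG1 is the cytosolic liver form and ARG2 the mitochondrial form of many tissues. ARG1 (ENSG00000118520, chromosome 6, 131573144 to 131584332) was counted 21, 46 and 35 times with vehicle and 23, 37 and 29 times with glycine, or at 0.599, 1.32 and 0.974 CPM against 0.721, 0.632 and 0.687 CPM. The vehicle libraries spread over both sides of the glycine libraries. The log2 change of -0.51 ± 0.278 (s.e.) was not called (adjusted p = 0.258 by edgeR), and the 95% interval from -1.11 to 0.09 leaves a fall of the size seen for ARG2 within what these counts allow.

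ARG2 (ENSG00000081181, chromosome 14, 67619798 to 67651720) was at 30.7, 34.1 and 33.2 CPM with vehicle and at 24.1, 24.7 and 26.0 CPM with glycine. Every glycine library was below every vehicle library. The means were 32.7 ± 1.76 and 24.9 ± 0.967 CPM (SD, n = 3), and the difference was -0.39 ± 0.0701 on the log2 scale (s.e., adjusted p = 0.00265 by edgeR). This was the best supported change among the 9 genes, and it was called under each of 14 alternative settings, with adjusted p between 0.000118 and 0.0147. A stretch of 37.4% of the exon length of ARG2 is shared with VTI1B on the opposite strand, and reads there cannot be assigned without strand. VTI1B had a log2 change of 0.08 (adjusted p = 0.497 by edgeR), with means of 78.1 ± 2.65 and 82.5 ± 5.73 CPM for vehicle and glycine (SD, n = 3).

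OAT turns ornithine into glutamate semialdehyde, from which proline or glutamate is made. OAT (ENSG00000065154, chromosome 10, 124397303 to 124418976, minus strand) had 62.1, 58.2 and 62.7 CPM with vehicle and 53.4, 51.9 and 51.8 CPM with glycine. The groups did not overlap, and the glycine libraries were close together. Means were 61.0 ± 2.43 and 52.3 ± 0.868 CPM (SD, n = 3), which is -0.22 ± 0.0619 on the log2 scale (s.e., adjusted p = 0.0320 by edgeR). The call was lost in 5 of the 6 fits that left out a library, with adjusted p from 0.0745 to 0.0951, and held without vehicle replicate 2 (0.0272). Without the filter on low counts the adjusted p was 0.0576.

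**Figure D3:**
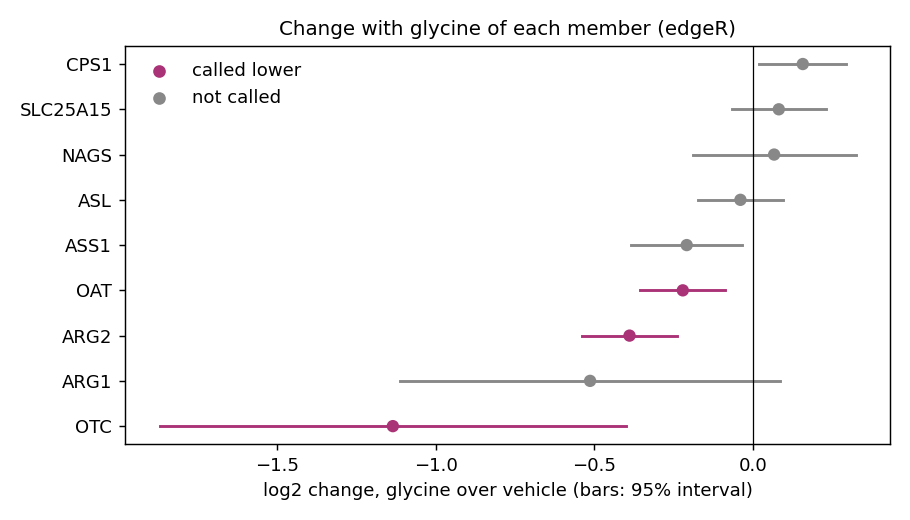
Log2 change of each gene, glycine over vehicle, with its 95% interval from edgeR. ARG2, OAT and OTC (purple) were called lower, and the intervals of CPS1 (0.02 to 0.29) and ASS1 (-0.38 to -0.03) also leave out 0 although neither passed the adjusted threshold.

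The balance between neighbouring steps was compared as the ratio of length-scaled levels within a library, for 5 ratios. With 3 libraries against 3 an exact permutation test cannot go below p = 0.1, so no ratio could pass. The ratio of ASS1 to ASL was 2.16, 2.18 and 2.28 with vehicle and 2.02, 2.12 and 1.75 with glycine, without overlap (two-sided exact permutation p = 0.1, adjusted 0.167). ASS1 to CPS1 went from 12.1 ± 1.03 to 9.36 ± 1.27 (SD, n = 3), also without overlap (exact permutation p = 0.1, adjusted 0.167). The ratio of ARG2 to ARG1 was alike in mean, at 30.1 ± 10.5 and 29.9 ± 2.43 (exact permutation p = 0.9, adjusted 0.9), and ARG1 had at most 46 counts in any library. The mitochondrial arginase exceeded the liver arginase at least 21-fold in each library. CAD, which makes carbamoyl phosphate for pyrimidines in the cytosol, was 3.15 ± 0.280 times CPS1 with vehicle and 3.05 ± 0.050 times with glycine (exact permutation p = 0.7, adjusted 0.875).

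The promoters of the 3 genes called lower are shown because these genes share a direction and differ widely in level. The calls of OTC and OAT were weak, as given above. The stretches are the 120 bases just before each gene as the count files place it, in GRCh38.p14 from RefSeq and 5′ to 3′ on the strand of the gene. The RefSeq start lies a further 122 bases downstream for ARG2, 53 for OAT and 59 for OTC. Capitals mark matches on either strand to 4 motifs: the GC box GGGCGG, the CCAAT box, the core TGACG of a cyclic AMP response element, and the TATA box TATAAA. A match on the other strand appears in reverse complement, as ATTGG does for the CCAAT box. ARG2 (chr14:67619678-67619797, plus strand), OAT (chr10:124418977-124419096, minus strand) and OTC (chrX:38352425-38352544, plus strand) read:
ARG2: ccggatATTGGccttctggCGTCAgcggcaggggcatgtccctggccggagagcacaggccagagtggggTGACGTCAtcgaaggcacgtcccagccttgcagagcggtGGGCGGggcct
OAT: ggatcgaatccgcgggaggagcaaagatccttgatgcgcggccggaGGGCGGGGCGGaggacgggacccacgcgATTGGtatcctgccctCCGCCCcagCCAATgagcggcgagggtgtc
OTC: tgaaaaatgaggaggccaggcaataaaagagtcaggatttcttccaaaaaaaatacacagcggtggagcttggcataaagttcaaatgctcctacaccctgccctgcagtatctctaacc

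The promoters of ARG2 and OAT were rich in G and C over these bases (68.3% and 69.2%), while that of OTC was not (44.2%), against a median of 58.7% over whole windows of all genes, and the stretch of OTC held none of the 4 motifs. Motifs were counted in windows from 250 bases before to 50 after the RefSeq start, of which 12 belong to the 9 genes and 35116 to all genes. GGGCGG was found for ASS1, ASL, ARG2, NAGS, SLC25A15 and OAT, and in 45.0% of all windows. CCAAT was found for CPS1, ASL, ARG2 and OAT (34.6% of all windows). TGACG was found for ASL, ARG2, NAGS and OAT (24.6% of all windows). TATAAA occurred for the pair with the lowest levels, OTC and ARG1 (11.5% of all windows), 192 and 29 bases before the RefSeq start. The palindrome TGACGTCA, which was looked for after the sequences had been read and which contains TGACG on both strands, stood 172 and 64 bases before the start of ARG2, in the window of no other of the 9 genes and in 1.85% of all windows. These matches are letters in a window, not measured binding.

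Around the 9 genes, 66 genes of 7 lists were followed, of which 54 were tested: 7 rose, 5 fell and 42 were not called, with a median log2 change of 0.05. The glycine and vehicle libraries did not overlap for 26 of the 54. Over all tested genes, 13.3% were called and 31.6% did not overlap.

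**Figure D4:**
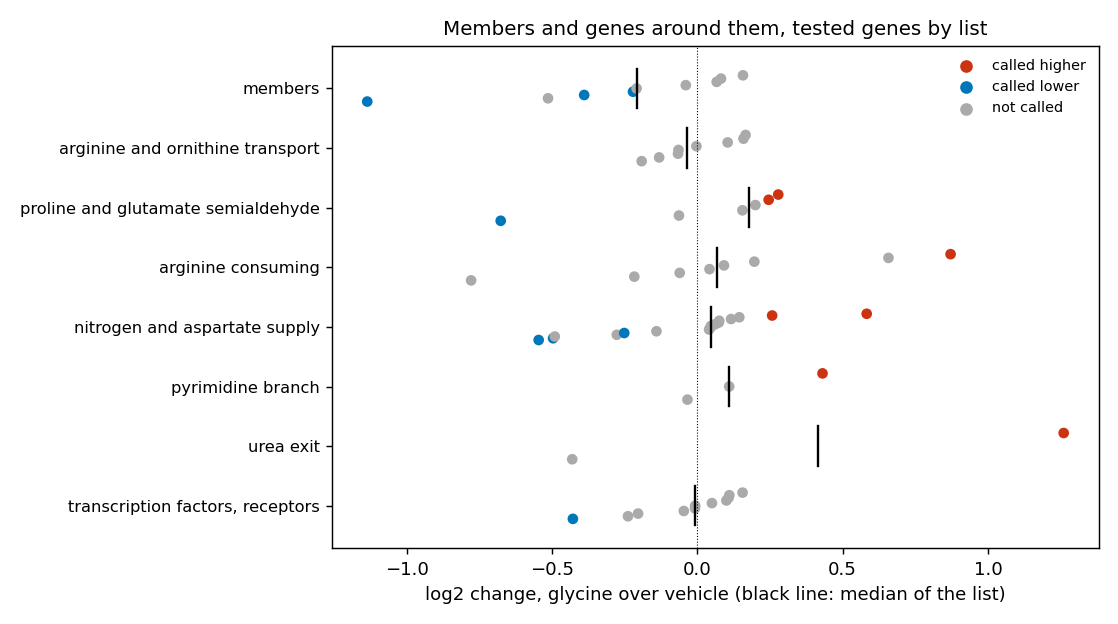
Log2 change of the tested genes, glycine over vehicle, for the 9 urea cycle and arginine genes (members, top row) and the 7 lists around them, 1 point per gene, with a black line at each list's median. Of the rows shown, that of the 9 genes has the lowest median (-0.21), and the genes called higher are spread over 5 of the lists. The 8 hepatocyte markers, not plotted here, had a lower median (-0.27).

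Arginine and ornithine transport showed no call among 8 tested genes, with a median log2 change of -0.03. SLC7A1, the main cationic amino acid transporter and the highest of the list at 18.3 ± 2.55 RPKM (SD, n = 3), had a log2 change of 0.16 (adjusted p = 0.288 by edgeR). SLC7A3 and the ornithine carrier SLC25A2 were too low to test, and SLC25A2 had no count at all.

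Proline and glutamate semialdehyde genes, into which the product of OAT feeds, gave 2 rises and 1 fall among 6 tested. ALDH18A1, the synthase that makes glutamate semialdehyde from glutamate, was at 531, 584 and 517 CPM with vehicle and at 358, 336 and 327 CPM with glycine. The groups were far apart, with a log2 change of -0.68 (adjusted p = 4.12e-05 by edgeR). Both enzymes that were lower here, OAT (with the weak call given above) and ALDH18A1, make the same intermediate. PYCR3 (log2 change 0.28, adjusted p = 0.0280 by edgeR), which reduces it onward to proline, rose, but was called in only 2 of the 6 fits that left out a library. PYCR1, a reductase of the same step, was not called (log2 change -0.06). With vehicle it stood level with ALDH18A1, at 144 ± 5.64 and 144 ± 9.35 RPKM (SD, n = 3), and with glycine above it, at 138 ± 1.98 and 90.4 ± 4.18 RPKM. Its ratio to OAT was 7.99 ± 0.547 with vehicle and 8.91 ± 0.207 with glycine (exact permutation p = 0.1, adjusted 0.167). PRODH, which starts proline breakdown, was too low to test.

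On the list of genes around the use of arginine, 1 of 8 tested genes was called. NOS3, the endothelial nitric oxide synthase, was at 32.5, 36.2 and 32.3 CPM with vehicle and at 63.2, 56.8 and 65.0 CPM with glycine. NOS3 rose by 0.87 on the log2 scale (adjusted p = 6.66e-06 by edgeR) and was called in all 14 alternative settings. Another gene covers 13.2% of its exon length. AGMAT, an agmatinase-related hydrolase and the highest of the list at 124 ± 3.73 RPKM, had a log2 change of 0.09 and was not called. NOS1 and PADI1 to PADI4 were near zero and were not tested.

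Of the 16 genes on the list around nitrogen and aspartate supply, which covers genes that make, use or carry ammonia, glutamate, aspartate or bicarbonate and related genes, 2 rose and 3 fell. GLUL, which makes glutamine from ammonia and glutamate, had 550 ± 33.3 CPM with vehicle against 390 ± 11.1 with glycine (SD, n = 3), and fell by 0.50 on the log2 scale (adjusted p = 0.000398 by edgeR). RHBG, an ammonia transporter, fell from 51.0, 44.6 and 56.7 CPM to 32.5, 36.2 and 35.4 CPM, a log2 change of -0.55 (adjusted p = 0.000988 by edgeR). GLUD1, the glutamate dehydrogenase and the highest of the list at 227 ± 13.5 RPKM, had a log2 change of -0.25 (adjusted p = 0.0362 by edgeR), with the call kept in 2 of the 6 fits without a library. GLUD1 has a near-identical copy, GLUD2, with which reads could have been split. On the aspartate side, SLC25A12, a mitochondrial aspartate and glutamate carrier, rose by 0.58 on the log2 scale (adjusted p = 0.000659 by edgeR). GOT1, the cytosolic aspartate aminotransferase, rose from 110, 115 and 115 CPM to 130, 139 and 138 CPM, by 0.26 on the log2 scale (adjusted p = 0.0126 by edgeR), and was called in 4 of the 6 fits without a library. ASS1, the enzyme of the cycle that uses aspartate, was not called.

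In the pyrimidine branch DHODH, the mitochondrial dihydroorotate dehydrogenase, rose by 0.43 on the log2 scale (adjusted p = 0.00195 by edgeR). CAD, the highest of these 3 genes, was not called, with a log2 change of 0.11. Of 5 genes for the exit of urea and related solutes, only AQP3 and AQP7 could be tested. AQP3, a channel for water, glycerol and urea, had 13.8, 14.9 and 13.7 CPM with vehicle and 31.8, 37.9 and 31.7 CPM with glycine, a log2 change of 1.26 (adjusted p = 1.28e-06 by edgeR). The hepatic channel AQP9 and the urea transporters SLC14A1 and SLC14A2 were near zero in all libraries.

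Among transcription factors and hormone receptors that are known to act on urea cycle genes, 1 of 11 tested was called. PPARGC1A, a coactivator of fasting genes, was at 12.3, 10.2 and 11.1 CPM with vehicle and at 7.86, 8.05 and 9.03 CPM with glycine, and fell by 0.43 on the log2 scale (adjusted p = 0.0125 by edgeR). The call held in 4 of the 6 fits without a library. ATF4, the highest of the list per length, had a log2 change of 0.05 and was not called. The glucagon receptor gene GCGR was too low to test.

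The genes most like each called member over the 6 libraries were sought, where the mean reached 10 CPM, by Pearson's r of log2 CPM. Levels of ARG2 ran close to PINK1 (r = 0.996) and MFSD1 (0.994), those of OAT to TPST2 (0.995), NUMB (0.993) and SIRPA (0.991), and those of OTC to COX11 (0.995), PPP1R3E (0.991) and WFIKKN1 (0.990). These values describe 6 libraries that fall into 2 treatment groups, so the difference between groups is part of each r, and for OTC they rest on 7 to 18 counts per library. They were also picked from the highest among all genes searched, so the search itself favours high values of r.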

How the data were processed

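Cells had been treated with vehicle or glycine and total RNA was sequenced, with 1 file per library. The authors deposited whole-number counts per gene, not normalized, with the exon length of each gene as another column. Per the labels' processing notes, Trimmomatic 0.36, STAR 2.5.2b and featureCounts of Subread 1.5.2 were used, with the build GRCh38. The strand setting and the annotation are not given in the sources used here. Of 57500 genes, 54784 had the same start and end in GENCODE 29, and the deposited length equalled the union of the exons in all 57500. Symbols were matched for 56898 genes.

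Groups and replicate numbers were taken from the labels. The counts were tested with the two-sided quasi-likelihood test of edgeR 4.0.16 (R 4.3.3). TMM factors scaled the libraries, and low genes were removed (minimum count 10, minimum total 15). Adjusted p-values are those of Benjamini and Hochberg over 15492 genes, called under 0.05. CPM and RPKM used the scaled library sizes. The study describes the replicates as biological, and counts an experiment as independent when it was done on another day. For its cell-based assays it also states that every run on a given day held control and treated samples. The edgeR p-values rest on the spread between these 3 samples per group, with each gene's variance drawn toward a trend over all genes. No replicate was a duplicate of another, since chi-square values over genes were 6.97 to 26.8 per degree of freedom. The test was tried on simulated counts for glycine against vehicle over 15492 genes, 200 of them changed by 1 on the log2 scale, of which 182 (91%) were recovered with 14 false calls. That change is larger than those of ARG2 (-0.39) and OAT (-0.22), and recovery of changes of their size was not tried.

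The 9 genes and the lists were chosen with earlier results of these data known. All 9 are named. From each surrounding list the text names the called genes (the 4 smallest p-values if there were more) and the gene with the highest RPKM with vehicle. Beside each called member stand genes of like pattern, at most 3. Of the genes these rules name, 2 are not reported here. Alternatives were other scaling factors, no filter or a mean of at least 1 CPM, DESeq2 1.42.0, limma 3.58.1 with voom, the replicate number as a block, and each library left out once. Promoter sequences came from RefSeq windows, found for all 9 genes. Protein sequences were not used here.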

Additional observations from a re-analysis of the deposited data

How the results depend on the processing

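No direction of the 9 genes' called changes turned under any setting. The number of the 9 genes called lower was 3 in the analysis as reported and with each other scaling and limma-voom, 2 with DESeq2 (OTC lost) and 2 with a mean of at least 1 CPM, where OTC and ARG1 were not tested. It was 1 (ARG2) without a filter on low counts, which raised the number of genes adjusted for to 31093. It was also 1 with the replicate block, where OTC had an edgeR adjusted p of 0.0706 and OAT of 0.0652. The replicate numbers gave no sign of pairing (correlations of same-numbered libraries from -0.058 to -0.00258, of the others from -0.198 to 0.214). No label ties a number to a day, so a pairing by day was neither shown nor excluded. Leaving out each library in turn gave 1 to 2 of the 9 genes called lower (1 without vehicle replicate 1 or 3 or glycine replicate 1 or 3) and none higher, 4 to 8 genes of the surrounding lists called higher (4 without vehicle replicate 1 or glycine replicate 3), and, over all tested genes, 587 to 926 called higher and 655 to 1010 lower. With glycine replicate 2 left out, the pair called was ARG2 and ASS1. CPS1, SLC25A15, NAGS, ASL and ARG1 were not called under any setting, and NAGS had a negative log2 change (-0.02) in 1 of 14. Scaling to total counts, without further factors, moved the median log2 change of all genes from 0.00349 to 0.0176. Depth limits OTC and ARG1 most, at 7 to 46 counts per library, and an interval that includes 0 does not show that a gene did not change. Some of these settings bring fewer samples or more genes, and the cause of the lost calls was not tested.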
